A study of Mus musculus with 7 samples.

Results

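The rearrangements described here are the productive TCRβ rearrangements of CD8 tumor-infiltrating lymphocytes (TILs) that carried 7 or more inserted bases at their junctions. Members were taken by a fixed rule: the rearrangement was in frame without a stop codon, and the numbers of bases inserted between V and D and between D and J summed to at least 7. The rule gave 707 members among 6907 productive rearrangements. They are called insertion-rich below and are set against the 5485 productive rearrangements with 1 to 6 inserted bases, called comparison rearrangements. Another 715 productive rearrangements had no inserted base.

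The libraries came from genomic DNA of CD8 T cells, isolated from A223 squamous cell carcinomas grown in C57BL/6 mice aged 6 to 8 weeks. Treatment began when tumors measured 250 to 350 mm3, and all 7 mice sequenced received the anti-PD-L1 antibody. In 3 mice (1R, 2R and 3R) the tumor responded (R) and in 4 (4NR, 5NR, 6NR and 7NR) it did not (NR). A223 is a transplanted tumor line, each library is 1 mouse, and mice treated with PBS were not analysed here. DNA of a single locus holds no expressed marker, so the CD8 label could not be checked.

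The variable part of a TCRβ gene is assembled in the thymus, where the recombinase joins a V, a D and a J segment and exonucleases trim the segment ends. Terminal deoxynucleotidyl transferase (TdT) then adds bases that no segment encodes, called N insertions, and it is known to add G and C more readily than A and T. The junction encodes CDR3, the loop that lies over the peptide presented by MHC. Junctions with few N insertions can arise again in many individuals, while each added base makes an exact repeat less likely.

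Sequences of 10 members are shown to make the inserted bases visible: the most abundant member of each mouse, the second of 7NR, and those found in the most mice. Each runs 5′ to 3′ on the coding strand over the 87 bases that were deposited, with the bases of both insertions in capitals and the segment bases in lower case. In 6NR 2 members tied as the most abundant, with 7 templates each, and 1 of them was the one listed for 3R.
1R, TCRBV20-01 with TCRBJ01-04, 293 templates: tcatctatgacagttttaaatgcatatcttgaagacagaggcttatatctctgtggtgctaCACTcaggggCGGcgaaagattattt
2R, TCRBV03-01 with TCRBJ02-07, 127 templates: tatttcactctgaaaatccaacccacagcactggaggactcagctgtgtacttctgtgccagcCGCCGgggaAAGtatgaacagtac
3R, TCRBV16-01 with TCRBJ02-04, 256 templates: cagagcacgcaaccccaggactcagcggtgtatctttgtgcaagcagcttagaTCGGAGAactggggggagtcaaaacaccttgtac
4NR, TCRBV02-01 with TCRBJ02-07, 51 templates: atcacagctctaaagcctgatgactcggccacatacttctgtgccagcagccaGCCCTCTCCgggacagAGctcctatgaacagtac
5NR, TCRBV26-01 with TCRBJ02-01, 106 templates: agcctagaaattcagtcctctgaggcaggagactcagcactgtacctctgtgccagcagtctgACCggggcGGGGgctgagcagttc
7NR, TCRBV16-01 with TCRBJ02-05, 922 templates: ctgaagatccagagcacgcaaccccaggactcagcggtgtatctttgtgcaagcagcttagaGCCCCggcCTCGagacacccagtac
7NR, TCRBV31-01 with TCRBJ01-04, 220 templates: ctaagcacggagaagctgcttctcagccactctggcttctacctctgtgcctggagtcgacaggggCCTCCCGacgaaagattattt
4 mice, TCRBV13-03 with TCRBJ01-06: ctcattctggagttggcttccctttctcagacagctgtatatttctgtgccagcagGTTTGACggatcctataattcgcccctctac
4 mice, TCRBV29-01 with TCRBJ02-05: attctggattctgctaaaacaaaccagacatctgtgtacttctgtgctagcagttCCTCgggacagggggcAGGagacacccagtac
4 mice, TCRBV31-01 with TCRBJ02-01: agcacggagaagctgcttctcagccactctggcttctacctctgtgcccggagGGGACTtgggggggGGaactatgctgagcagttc

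In 3R the 7 inserted bases lay between untrimmed TCRBV16-01 and 9 bases of TCRBD02-01, and none lay before J. In the second member of 7NR all 7 lay between D and J. Most members had both insertions: 633 of 707 (89.5%), against 2585 of 5485 comparison rearrangements (47.1%), a difference that the rule favors since more bases leave fewer empty junctions. Members held 4.37 inserted bases on average between V and D and 4.16 between D and J. The median was 8 inserted bases, the highest 29, and 308 members had exactly 7, just inside the threshold, while 521 rearrangements had 6, just outside it.

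Among the members, 39 (5.52%) had a V end trimmed so far that fewer than 3 V bases of CDR3 remained, so that V no longer encoded the conserved cysteine that opens the loop. In the comparison class 2 of 5485 rearrangements were of this form. The 39 held 1 or 2 templates each, 47 in all, and none was found in another mouse. Their J end was untrimmed in 37 (94.9%), against 22.0% of the other 668 members, and their median V deletion was 19 bases against 3. They made up 31 of the 45 members with 13 or more insertions, and without them the highest number was 17. Mouse 6NR, the shallowest library, had 6 of them among 32 members, while the other mice had 3 to 11. Results below that they move across the threshold, in direction or by over 1.5 times are given with and without them, and where these junctions came from was not tested.

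Insertion-rich rearrangements made up 9.58% to 11.8% of the productive rearrangements in the 7 mice, and R and NR differed by less than the spread between mice. Mouse 1R had 135 members among 1409 rearrangements, 2R had 80 among 766 and 3R had 109 among 1090. Of the NR mice, 4NR had 112 among 948, 5NR had 103 among 953, 6NR had 32 among 333 and 7NR had 136 among 1408. The shares were 9.58%, 10.4% and 10% in 1R, 2R and 3R and 11.8%, 10.8%, 9.61% and 9.66% in 4NR to 7NR. The 95% Wilson intervals, which cover counting error only, ran from 8.15% to 11.2% in 1R and from 6.89% to 13.3% in 6NR. R averaged 10.01% ± 0.431 (SD, n = 3) and NR 10.5% ± 1.05 (SD, n = 4), a difference of -0.46 percentage points (two-sided exact permutation test over 35 divisions, p = 0.514, adjusted p = 0.905). Without the 39 the difference was -0.0116 percentage points. With 3 mice against 4 the smallest p is 0.0286.

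Their share of templates varied more between mice, from 2.74% to 9.08%. A template is a DNA molecule counted by the assay, so the templates of a rearrangement measure the size of its clone. Members held 824, 315 and 599 templates in 1R, 2R and 3R, or 5.97%, 3.68% and 6.06% of the productive templates. In 4NR, 5NR, 6NR and 7NR they held 226, 391, 64 and 1379 templates, or 4.46%, 3.33%, 2.74% and 9.08%. R mice averaged 5.24% ± 1.35 (SD, n = 3) and NR mice 4.91% ± 2.88 (SD, n = 4) (exact permutation test, p = 0.886). In 7NR the largest member alone held 66.9% of the member templates. Leaving out the largest member of each mouse brought the shares to 2.23% to 3.93% and the difference between R and NR to 0.34 percentage points (exact permutation test, p = 0.543).

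Out-of-frame rearrangements, which encode no receptor chain and so pass no selection on it, carried many insertions more often than productive ones in the same mice, on average 19.6% against 10.3%. Those with 7 or more insertions numbered 746 of 3887. Their shares were 20.2%, 18.9% and 19.2% in 1R, 2R and 3R and 16.7%, 17.97%, 24.0% and 19.8% in 4NR to 7NR, above the productive share in each mouse. The mean difference, in-frame minus out-of-frame, was -9.28 percentage points ± 2.98 (SD, n = 7) by a two-sided exact sign-flip permutation test within mice (p = 0.0156, the smallest that 7 mice allow, adjusted p = 0.03125 over 16 tests). Of the 746, 164 (22.0%) had the V end trimmed past the cysteine codon. Without such rearrangements in either frame the difference was -6.04 percentage points, lower in 7 of 7 mice, with member shares of 7.95% to 11.5% in frame and 13.9% to 17.4% out of frame.

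**Figure D1:**
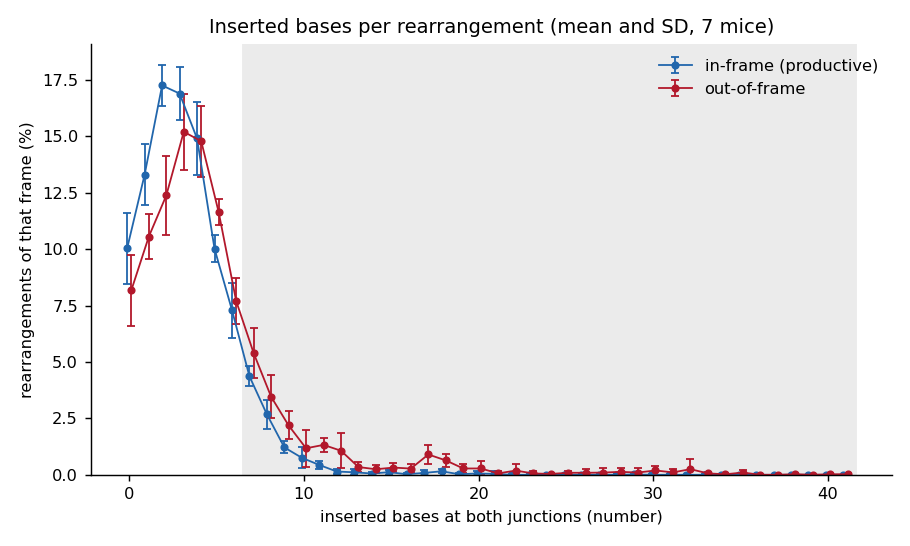
Rearrangements by number of inserted bases, summed over both junctions, as a percentage of all in-frame or out-of-frame rearrangements of a mouse. Points are means and bars SDs over 7 mice, and the shaded range holds 7 or more insertions. The out-of-frame line lies above the in-frame line from 5 to 35 insertions, so the lines cross below the shaded range. It rises again at 17, where it reaches 0.900%.

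V segments were used by the members much as by the comparison rearrangements, and 3 of 25 V labels tested (12.0%) differed in use: 1 higher (4.00%) and 2 lower (8.00%). The label that was higher reached the minimum of 10 rearrangements only through the members, so its direction was fixed by that filter. Use was counted as the number of distinct rearrangements per label, and all folds in use are log2 values from edgeR's quasi-likelihood test with the mouse as a term. The most used labels among members were TCRBV13-02 with 73 rearrangements, TCRBV19-01 with 58, TCRBV16-01 with 53, TCRBV13-01 with 46 and TCRBV03-01 with 44. They were followed by TCRBV12-01 and TCRBV29-01 with 43 each, TCRBV13-03 with 36, TCRBV12-02 with 35 and TCRBV31-01 with 32. None of these 10 passed the test. Their log2 folds over the comparison class ran from -0.58 ± 0.25 (SE) for TCRBV13-03, lower in 7 of 7 mice (adjusted p = 0.12), to 0.59 ± 0.30 (SE) for TCRBV31-01, higher in 6 of 7 (adjusted p = 0.182). TCRBV31-01 is the V segment downstream of the D and J segments, which joins them by inversion.

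The distal labels TCRBV01-01 and TCRBV05-01 were used less by the members. TCRBV01-01 took 2.97% of the members and 5.69% of the comparison rearrangements, and its share was lower in 6 of 7 mice. In 1R, 2R and 3R its member share was 3.70%, 1.25% and 2.75%, and in 4NR, 5NR, 6NR and 7NR it was 2.68%, 1.94%, 12.5% and 2.21%. The high value of 6NR rested on 4 of 32 members. The log2 fold was -1.002 ± 0.30 (SE), with an adjusted p of 0.0149 by edgeR. TCRBV05-01 fell from 5.29% to 2.97% (log2 fold -0.91 ± 0.31 SE, adjusted p = 0.028 by edgeR), with member shares between 0% in 6NR and 4.59% in 3R. Neither call held with DESeq2 or with the exact sign-flip test on shares, at an insertion threshold of 6 or 8, among rearrangements with a named D or of at least 2 templates, or with each sequence counted in 1 mouse, and that of TCRBV05-01 was lost without TMM normalization and with summed templates too. Adjusted over 25 labels, the sign-flip test of 7 mice can pass a label only if many labels reach its smallest p. Its result therefore decides little here. Both calls were also lost without 1R, without 2R, without 4NR, without 5NR or without 7NR, with log2 folds between -0.99 and -0.58.

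TCRBV27-01, the label that was higher, was found in 12 members and in no other productive rearrangement. All 12 were among the 39 trimmed past the cysteine codon. Every mouse but 6NR had some: 1R had 3, 2R had 2, 7NR had 4, and 3R, 4NR and 5NR had 1 each. No fold or p is given, since a label found in members alone could only pass the minimum by being higher in them. Without the 39 it was no longer tested, TCRBV05-01 no longer passed (adjusted p = 0.0679 by edgeR) and TCRBV01-01 was the 1 label past the threshold (adjusted p = 0.0456 by edgeR). It falls below the minimum of 10 rearrangements without 1R or without 7NR, and no label passed then. The mouse gene Trbv27 is a pseudogene in RefSeq's GRCm38.p6 annotation, as are Trbv8, Trbv9, Trbv10, Trbv25 and Trbv28, whose labels held 6 members in all, each of them trimmed in the same way. Trbv22 and Trbv29 are also listed as pseudogenes, and of their 2 and 43 members 1 was trimmed in that way. Unlike TCRBV27-01, the TCRBV29-01 label held 321 productive rearrangements, among them the 264-template clone of 1R. Whether Trbv29 is functional was not tested.

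By groups of labels, the distal labels TCRBV01 to TCRBV05 took 138 members (19.5%, against 24.8% of comparison rearrangements), and labels TCRBV19 to TCRBV30 took 190 (26.9%, against 21.5%). The TCRBV13 family took 155 (21.9% against 22.8%), the TCRBV12 pair 78 (11.03% against 12.4%), TCRBV14 to TCRBV17 111 (15.7% against 15.4%) and TCRBV31 32 (4.53% against 2.88%). Between mice the share of the TCRBV13 family lay between 18.8% and 25.0%, while that of the TCRBV12 pair ran from 0% in 6NR to 14.8% in 1R.

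**Figure D2:**
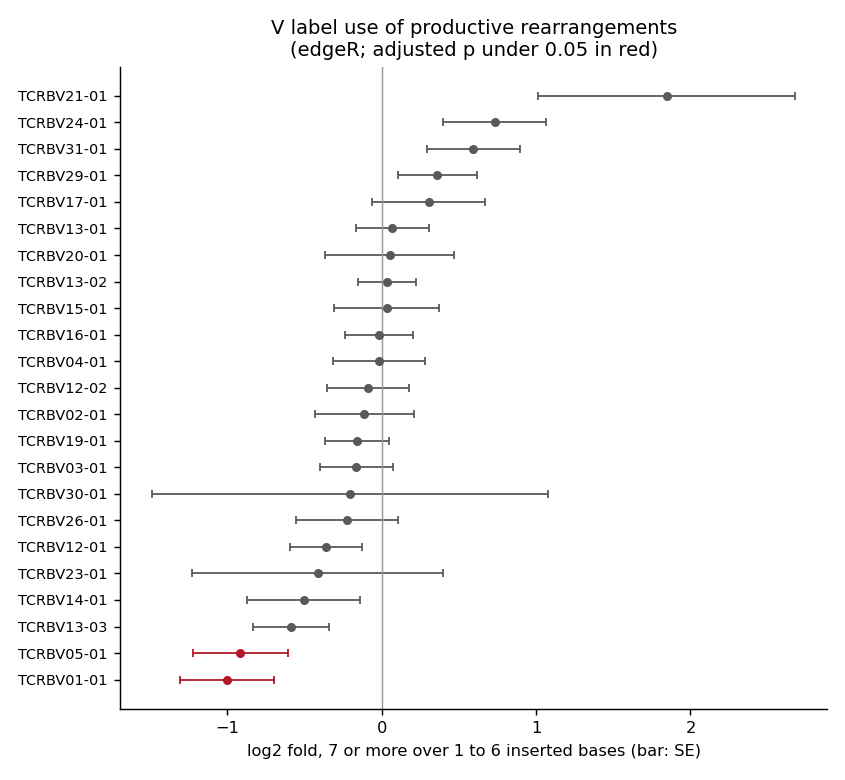
Log2 fold in use of 23 V labels, insertion-rich over comparison rearrangements, with 1 SE as the bar, from edgeR on numbers of rearrangements in 7 mice. TCRBV01-01 and TCRBV05-01, in red, lie lowest. TCRBV27-01, with 0 comparison rearrangements, and the unresolved TCRBV13 label are not drawn.

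Between R and NR, no V label among the members differed in use: 0 of 21 labels (0%) passed, with 1 at an unadjusted p under 0.05 by edgeR and 0 by DESeq2. That label was TCRBV24-01, with 2, 2 and 3 members in 1R, 2R and 3R and 8, 5, 4 and 3 in 4NR to 7NR. Its member shares were 1.48% to 2.75% in R and 2.21% to 12.5% in NR, so the groups overlapped, and the log2 fold, R over NR, was -1.29 ± 0.59 (SE, adjusted p = 0.579 by edgeR). TCRBV12-02 had the highest fold toward R at 0.91 ± 0.50 (SE, adjusted p = 0.579 by edgeR).

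J segments did not differ in use between the classes: 0 of 12 J labels tested (0%) passed, 1 at an unadjusted p under 0.05 by edgeR and 0 by DESeq2. TCRBJ02-07 was the most used, with 147 members (20.8%, against 24.0% of comparison rearrangements), and its log2 fold was -0.15 ± 0.19 (SE). It was followed by TCRBJ01-01 with 81, TCRBJ02-05 with 80, TCRBJ02-01 with 77 and TCRBJ02-03 with 62. TCRBJ01-01 had the highest fold, 0.46 ± 0.19 (SE, adjusted p = 0.302 by edgeR). Its member share was 10.4%, 8.75% and 11.01% in R and 8.93%, 14.6%, 15.6% and 13.2% among NR mice, above the comparison share in 6 of 7 mice. TCRBJ01-03 had the lowest, -0.32 ± 0.37 (SE, adjusted p = 0.964 by edgeR). J cluster 1 took 236 members (33.4%, against 30.3%) and J cluster 2 took 470 (66.5%, against 69.6%).

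D segments are short, and trimming often leaves too few bases to name one. A D label was given to 549 members, of which 302 carried TCRBD01-01 and 247 TCRBD02-01. The other 158 could have come from either D segment. In the comparison class 1007 had no named D: 885 could have come from either, and 122 were typed as V joined to J. Of the members 0 were of that type, and the share tested here counts both kinds. The share of members without a named D was 24.4%, 13.8% and 22.9% in 1R, 2R and 3R and 19.6%, 24.3%, 25.0% and 25.0% in 4NR to 7NR. It exceeded the comparison share in 6 of 7 mice, by 3.81 percentage points ± 4.15 (SD, n = 7, exact sign-flip permutation test, p = 0.0625, adjusted p = 0.0833), and did not pass. Without the 39 the difference was 2.00 percentage points (exact sign-flip permutation test, p = 0.234), and without 2R it was 5.29 and passed (exact sign-flip permutation test, adjusted p = 0.0455). TCRBD01-01 made up 57.2% ± 10.6 (SD, n = 7) of the named D segments in members and 52.4% ± 2.27 (SD, n = 7) in the comparison class (exact sign-flip permutation test, adjusted p = 0.417). Leaving out 6NR, where 79.2% of the named members were TCRBD01-01, brought that difference from 4.81 to 0.75 percentage points. By J cluster the shares of TCRBD01-01 were near equal: 91.8% of named members and 91.3% of named comparison rearrangements with cluster 1, and 38.5% and 38.0% with cluster 2. TCRBD02-01 lies downstream of J cluster 1 and reaches it only rarely. It was named in 14 members with a cluster 1 J.

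Of the 16 within-mouse measures, 8 (50%) had an adjusted p under 0.05, counting the in-frame against out-of-frame share given above. All other measures compared the insertion classes, and the junctions of members differed in length, trimming, base composition and residues. Inserted bases are part of CDR3, and a segment base counts as inserted where the match to the segment ends early. Length and trimming are therefore tied to the rule by construction, as are residue shares, since members hold more inserted bases per CDR3. Members encoded CDR3s of 14.9, 15.05 and 15 residues on average in R and 15.1, 14.9, 14.7 and 14.7 in NR. Comparison rearrangements averaged 13.98 residues. The mean difference was 0.93 residues ± 0.184 (SD, n = 7), higher in 7 of 7 mice (exact sign-flip permutation test, p = 0.0156, adjusted p = 0.03125). Without the 39 members trimmed past the cysteine codon it was 1.10 residues.

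The segments gave fewer bases to the loop in members. Segment-encoded CDR3 bases numbered 36.4, 36.6 and 36.5 in 1R, 2R and 3R and 36.7, 36.4, 34.6 and 35.5 in 4NR to 7NR, while the comparison classes averaged 38.8. The difference was -2.66 bases ± 0.85 (SD, n = 7), lower in 7 of 7 mice (exact sign-flip permutation test, p = 0.0156, adjusted p = 0.03125), and -1.63 bases without the 39. V ends had lost 4.38 bases on average in members and 2.50 in the comparison class, a difference of 1.88 ± 0.777 (SD, n = 7) in the same direction in 7 of 7 mice (exact sign-flip permutation test, p = 0.0156, adjusted p = 0.03125). Without the 39 the difference fell to 0.80 bases (higher in 7 of 7 mice, exact sign-flip permutation test, p = 0.0156). J ends had lost 3.37 bases in members and 2.72 in the comparison class, higher in 6 of 7 mice (exact sign-flip permutation test, p = 0.03125, adjusted p = 0.05, not below the threshold). Without the 39 the J difference was 0.87 bases, higher in 7 of 7 mice, and passed (exact sign-flip permutation test, adjusted p = 0.0278). Of the 668 other members, 92.7% encoded 13 to 17 residues, 28 encoded 18 or more, and no member exceeded 20.

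The bases that were inserted were richer in G and C in members. G and C made up 62.9%, 60.8% and 61.3% of inserted bases in 1R, 2R and 3R and 64.0%, 60.7%, 62.8% and 62.2% in 4NR to 7NR. In the comparison class the values were 52.9% to 58.2%, so the values of the mice did not overlap between the classes. The difference was 5.38 percentage points ± 1.94 (SD, n = 7, exact sign-flip permutation test, p = 0.0156, adjusted p = 0.03125) and 7.31 without the 39. The share of G and C also rose within the comparison class. Pooled over mice without the trimmed junctions, G and C made up 44.9% at 1 inserted base, 59.6% at 5, 62.5% at 6 and 62.2% at 7. The sides differed in which of these bases was common. With the 39 left out, C made up 48.7% ± 4.73 (SD, n = 7) of the bases between V and D, and G 38.2% ± 2.65 (SD, n = 7) of those between D and J. In the comparison class C made up 46.6% on the V side and G 29.6% on the J side, while T on the J side was 27.7% against 18.9% in members. G on the J side of members ranged from 34.5% to 42.9% over the mice, above the comparison range of 27.1% to 32.2%.

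Arginine and proline, which have codons rich in G and C, were more common in the CDR3s of members. Arginine made up 5.26%, 4.57% and 4.77% of the residues in 1R, 2R and 3R and 4.97%, 4.81%, 5.33% and 5.35% in 4NR to 7NR, against 2.56% to 3.42% in the comparison class. The difference was 2.11 percentage points ± 0.494 (SD, n = 7, exact sign-flip permutation test, p = 0.0156, adjusted p = 0.03125). Proline made up 2.67% to 4.202% in 6 mice and 5.97% in 6NR, against 1.55% to 1.88%, a difference of 1.93 ± 1.17 (SD, n = 7, exact sign-flip permutation test, p = 0.0156, adjusted p = 0.03125). Both residues also rose within the comparison class. Arginine was 2.30% at 1 inserted base, 4.15% at 6 and 4.78% at 7, pooled over mice without the trimmed junctions. Proline was 0.876%, 2.46% and 2.99%. Glycine, for which the D segments are rich in codons, made up 11.2% in members and 10.7% in the comparison class. It was higher in 6 of 7 mice and did not pass (0.50 percentage points ± 0.716, SD, n = 7, exact sign-flip permutation test, adjusted p = 0.135). Without the 39 the glycine difference was 0.67 percentage points and passed (exact sign-flip permutation test, adjusted p = 0.0455). When each rearrangement counted by its templates, the 6 length, trimming and composition calls were lost (adjusted p = 0.0521 to 0.104 over 10 tests) and kept their direction.

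**Figure D3:**
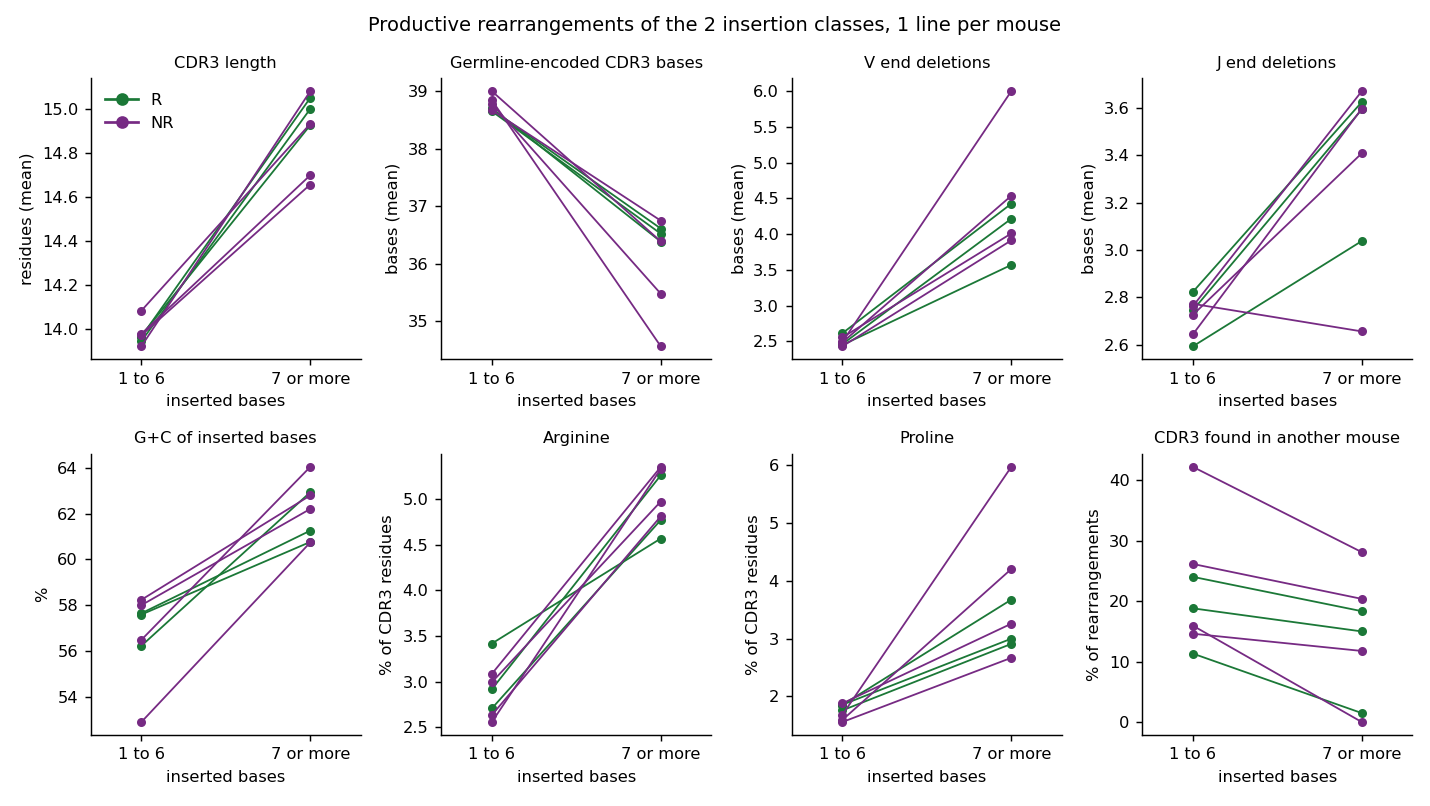
Mean values of 8 measures in productive rearrangements with 1 to 6 and with 7 or more inserted bases, 1 line per mouse, R in green and NR in purple. Axes do not start at 0. The lines rise for length, V deletions, G and C, arginine and proline and fall for segment-encoded bases and for the share of CDR3s found in another mouse in all 7 mice, and rise for J deletions in all but 6NR.

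Fewer of the members encoded a CDR3 that was also found in another mouse. The shares were 1.48%, 15% and 18.3% in 1R, 2R and 3R and 0%, 20.4%, 28.1% and 11.8% in 4NR to 7NR. In the comparison class they were 11.3%, 18.8% and 24.0% in R and 16.0%, 26.2%, 42.2% and 14.6% in NR. The difference was -8.29 percentage points ± 5.13 (SD, n = 7), lower in 7 of 7 mice (exact sign-flip permutation test, p = 0.0156, adjusted p = 0.03125). Sharing is mutual, so the mice are not fully independent here. In 4NR 0 of 112 members had a CDR3 found elsewhere, against 119 of 746 comparison rearrangements. The call was lost among rearrangements of at least 2 templates (-5.61 percentage points, adjusted p = 0.149 by the same test).

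The difference was also seen among CDR3s encoded by another nucleotide sequence. Counting only copies in another mouse with different bases, members reached 6.63% ± 5.36 (SD, n = 7) and comparison rearrangements 15.8% ± 5.87 (SD, n = 7). Members were lower in 7 of 7 mice (-9.14 percentage points ± 3.13, SD, n = 7, exact sign-flip permutation test, p = 0.0156). For identical nucleotide sequences the classes were close: 10.7% ± 9.54 (SD, n = 7) of members and 11.9% ± 10.4 (SD, n = 7) of comparison rearrangements were found in another mouse (exact sign-flip permutation test, p = 0.516). That difference, -1.19 percentage points, turned to 0.0466 without the 39. Of the 80 members whose CDR3 was shared, 58 (72.5%) had an identical nucleotide sequence elsewhere, against 508 of 1046 (48.6%) in the comparison class.

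By number of insertions, the pooled share of CDR3s found in another mouse went from 26.0% at 1 inserted base to 9.79% at 6. It was 17.2% (53 of 308) at exactly 7, 9.44% at 8 and 7.41% at 9 or 10. It was 0 of 84 at 11 or more, which allows a share of up to 3.57%. The same step was seen in identical sequences, with 7.49% of rearrangements shared at 6 inserted bases, 13.6% (42 of 308) at 7, 6.67% at 8 and 2.96% at 9 or 10.

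The identical sequences among members came to 24 of 673 distinct ones (3.57%), against 215 of 5192 (4.14%) in the comparison class. Of the 24, 17 had exactly 7 insertions and none had more than 10. Most were found in 2 mice (17), 4 in 3 mice and 3 in 4 mice, and 18 were found in both R and NR mice. The TCRBV13-03 and TCRBJ01-06 sequence printed above held 64 templates in 5NR, 11 in 3R and 1 each in 6NR and 7NR. The TCRBV29-01 and TCRBJ02-05 sequence held 25 templates in 2R, 4 in 3R and 1 each in 5NR and 7NR. The third sequence found in 4 mice, with TCRBV31-01 and TCRBJ02-01, was rare in each of them: 5 templates in 5NR, 2 in 3R and 1 each in 6NR and 7NR.

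The frequency of a shared sequence mostly differed between mice, and only 5 of the 24 exceeded 1% of the productive templates in any mouse. The second-highest frequency was 21.0% of the highest at the median over the 24. It reached 99.3% for the TCRBV31-01 and TCRBJ02-01 sequence, which was rare throughout. Among the larger clones, the largest member of 7NR had 922 templates there and 3 in 6NR. The TCRBV16-01 and TCRBJ02-04 member held 256 templates in 3R, 7 in 6NR and 3 in 7NR, and the TCRBV26-01 and TCRBJ02-01 member 106 in 5NR, 4 in 7NR and 3 in 3R. The mice were unequal. Mouse 1R had 1 of the 24 and 4NR none, while 3R and 5NR had 9 in common, 3R and 7NR 7, and 2R and 5NR, as well as 6NR and 7NR, 6 each. The DNA of all mice was sequenced by 1 provider, and whether copies of a sequence in a second library stem from that mouse was not tested. Counting each nucleotide sequence only in the mouse with its highest frequency kept the direction of the 7 within-mouse calls other than sharing, each with an adjusted p of 0.0273 by the exact sign-flip permutation test.

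**Figure D4:**
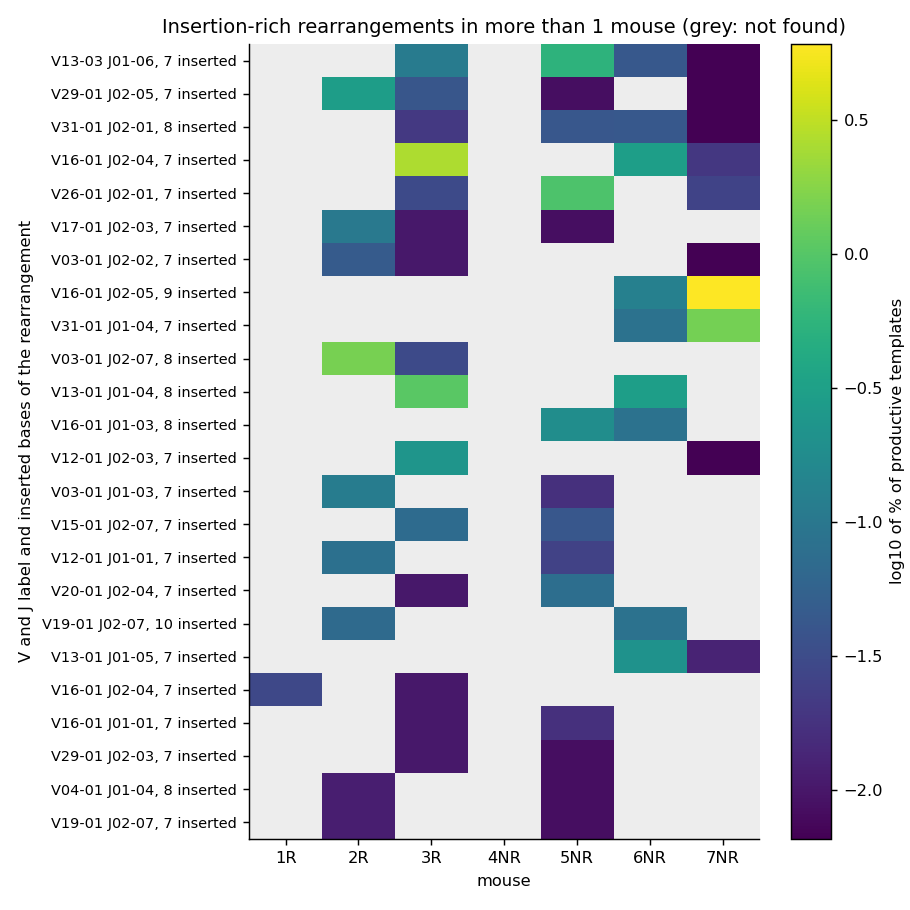
Frequency, as log10 of the percentage of productive templates, of the 24 insertion-rich nucleotide sequences found in more than 1 mouse, labelled by V and J segment and inserted bases. The column of 4NR is empty and that of 1R has 1 cell, while 3R and 5NR have most cells. The brightest cell is the 6.07% clone of 7NR.

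Clone sizes of the members were slightly smaller. The mean log2 number of templates per rearrangement was 0.63, 0.85 and 0.78 in 1R, 2R and 3R and 0.52, 0.73, 0.68 and 0.56 in 4NR to 7NR. It was below the comparison mean in 6 of 7 mice, by 0.13 on average (difference -0.13 ± 0.086, SD, n = 7, exact sign-flip permutation test, p = 0.03125, adjusted p = 0.05, not below the threshold). Without the 39 trimmed past the cysteine codon it was -0.10 and passed (exact sign-flip permutation test, adjusted p = 0.0455), and it also passed without 2R (-0.16, exact sign-flip permutation test, adjusted p = 0.0455) and in 4 other settings. Single templates made up 61.7% of the members (436 of 707) and 58.0% of the comparison rearrangements, with a mean within-mouse difference of 2.58 percentage points ± 4.86 (SD, n = 7, exact sign-flip permutation test, adjusted p = 0.286). It was 1.02 without the 39 (exact sign-flip permutation test, p = 0.641) and 3.72 without 2R, where it passed (exact sign-flip permutation test, adjusted p = 0.0455). Members above 0.1% of the productive templates numbered 31, and their share was 1.06 percentage points lower than in the comparison class (difference -1.06 ± 1.16, SD, n = 7, exact sign-flip permutation test, adjusted p = 0.0833). Without the 39 that difference was -0.189 (lower in 5 of 7 mice, exact sign-flip permutation test, p = 0.859). The clone size that passes 0.1% depends on depth. In 6NR 3 templates (0.129%) were enough, and 7 of the 31 came from it. Its shares were 21.9% of members and 21.7% of comparison rearrangements.

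Large clones did occur among the members. Those above 1% of the productive templates numbered 8 (1.13% of members, against 65 or 1.19% of comparison rearrangements): 2 each in 1R, 3R and 7NR and 1 each in 2R and 4NR. The TCRBV16-01 clone of 7NR, with 922 templates, held 6.07% of the repertoire (95% Wilson interval 5.70% to 6.46%) and ranked 2 among all its productive rearrangements. In the other mice the largest member ranked between 7 and 29. In 1R the largest 2 were the TCRBV20-01 clone with 293 templates (2.12%) and a TCRBV29-01 and TCRBJ01-02 clone with 264 (1.91%). In 3R the TCRBV16-01 clone held 2.59% and a TCRBV13-01 and TCRBJ01-04 clone 1.05%. In 4NR the largest member held 51 templates (1.01%) and the next, with TCRBV12-01 and TCRBJ01-04, only 6. In 5NR the TCRBV26-01 clone held 0.903% and the TCRBV13-03 clone 0.545%. In 6NR, with 2332 productive templates, no member exceeded 7 templates, and the most abundant were the TCRBV16-01 and TCRBV13-01 sequences that were large in 3R.

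**Figure D5:**
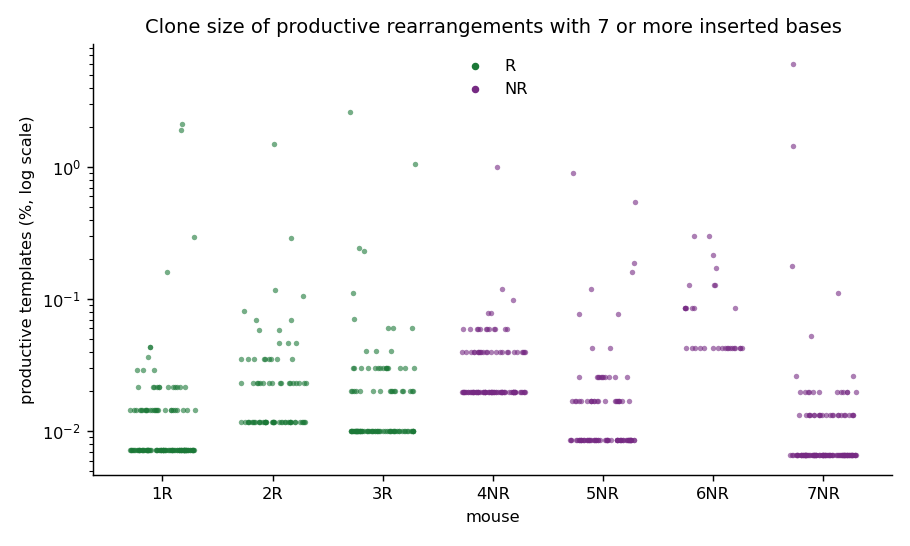
Clone size of each insertion-rich rearrangement as a percentage of the productive templates of its mouse, on a log scale, R in green and NR in purple. The lowest row of each mouse holds rearrangements with 1 template, and its height is set by depth. In 7NR 1 clone stands at 6.07%, and in 6NR none lies above 0.3002%.

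None of the 16 within-mouse differences differed between R and NR by the exact permutation test over 35 divisions: 0 had an unadjusted p under 0.05, and the lowest was 0.2. For CDR3 length R mice showed a difference of 1.03 residues ± 0.068 (SD, n = 3) and NR mice 0.85 ± 0.216 (SD, n = 4) (exact permutation test, p = 0.2). For arginine R mice showed 1.85 percentage points ± 0.624 (SD, n = 3) and NR mice 2.30 ± 0.338 (SD, n = 4) (exact permutation test, p = 0.371). A p above the threshold with so few mice does not show that the groups are alike.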

How the data were processed

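TCRβ rearrangements were sequenced from genomic DNA of CD8 TILs, 1 library per mouse. The authors deposited per nucleotide rearrangement a template count, estimated by the assay provider and not normalized, with its V, D and J label, frame, CDR3 length, deletions and insertions at each junction, and the fraction of productive templates. The genome build is not given in the sources used here, so no coordinates are printed. A table of per-sample summaries was not used. Read depth is unknown. Productive templates per mouse ranged from 2332 to 15182, and intervals cover counting error only. No insertion value was negative. The members, lists and tests were chosen with earlier results of these data known.

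Insertions were summed over both junctions. Classes were compared within mice by a two-sided exact sign-flip permutation test over 128 sign patterns, adjusted by Benjamini-Hochberg over 16 tests, and R with NR over 35 divisions of the mice, adjusted over 5 measures. Label use was tested with edgeR 4.0.16 (R 4.3.3; TMM, common dispersion, labels with at least 10 rearrangements), with DESeq2 1.42.0 as an alternative. Python 3.11.15 and scipy 1.17.1 were used otherwise. On simulated data with 4-fold changes edgeR recovered 82.5% of changed V labels and 99.2% of changed J labels between classes, and 65.0% of changed V labels between R and NR. With 2-fold changes it recovered 50.8%, 75.0% and 14.2%. The simulated mice all had the same label shares apart from the changes, with the fitted common dispersion, which was 3.2e-08 for R against NR. These rates therefore do not cover further differences in label use between mice.

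Named items were the 2 most abundant members per mouse, the 3 found in the most mice, the 10 V and 5 J labels with most members, labels past the threshold or with the largest change, and all D labels. Alternatives left out each mouse, changed the insertion threshold to 6 or 8, kept named D segments or at least 2 templates, dropped 1-base variants or repeated sequences, and weighted by templates. Leaving out junctions trimmed past the V cysteine codon, 1-base variants of a clone 5 times larger, or CDR3s other than 14 or 15 residues was chosen after seeing the data. V and J names were matched to RefSeq's GRCm38.p6 gene table for 30 of 32 V labels.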

Additional observations from a re-analysis of the deposited data

Results flagged for a closer look

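In 2 of 38 sets of mice examined, 1 mouse stood apart from the others by Dixon's test at 95%, and chance alone gives about 1 in 20. In 2R the share of members without a named D segment was lower than that of comparison rearrangements, by -5.07 percentage points, while the other 6 mice lay between 2.89 and 6.59. In 6NR the V end deletions of members exceeded those of the comparison class by 3.51 bases, while the other 6 mice lay between 1.12 and 2.05. Of the 32 members in 6NR, 6 had the V end trimmed past the cysteine codon.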

How the results depend on the processing

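Apart from leaving out a mouse, 208 results were computed under alternatives, and 171 kept their direction, their side of the threshold and, for counts, a value within 1.5 times. The 30 named V and J labels kept their side of the threshold in 563 of 594 cases, mice left out included, and no label that passed in either setting changed direction. Weighted by templates, where single clones decide the mean, 6 calls were lost: CDR3 length 0.757 residues, segment-encoded bases -3.46, V deletions 1.76 bases, G and C 17.9, arginine 5.80 and proline 3.49 percentage points. The last 3 kept the smallest p that 7 mice allow (exact sign-flip permutation test, p = 0.0156, adjusted p = 0.0521 over 10 tests). The glycine difference reversed to -2.75. The share of shared CDR3s was lost with at least 2 templates (-5.61) and with CDR3s of 14 or 15 residues (-10.0, adjusted over fewer tests). J deletions passed at insertion thresholds of 6 (0.538) and 8 (0.618), with a named D (0.648), at least 2 templates (0.629), each sequence in 1 mouse (0.639) and without junctions trimmed past the cysteine codon (0.872). Glycine passed at a threshold of 6 (0.620) and without those junctions (0.665). The log2 clone size passed at a threshold of 8 (-0.18), with a named D (-0.17), at least 2 templates (-0.21), each sequence in 1 mouse (-0.13) and without those junctions (-0.10). The share above 0.1% passed with a named D (-2.24). Sharing of identical sequences passed at a threshold of 8 (-5.78) and reversed with at least 2 templates (0.894) and without those junctions (0.0466). Between R and NR, the share of rearrangements reversed at a threshold of 6 (0.556) and with a named D (0.0172), and that of templates at a threshold of 8 (-0.748). None of these 3 passed. The number of V labels called, 3, became 1 with DESeq2, at a threshold of 6, with each sequence in 1 mouse and without those junctions, 0 by the exact sign-flip test, with a named D or at least 2 templates (6, 6 and 2 at an unadjusted p under 0.05), and 5 with summed templates. At a threshold of 8 there were 4, of which 1 was among the 3. The causes were not tested.

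Leaving out 1 mouse, the smallest p that 6 mice allow is 0.03125, and whether it passes depends on how many of the 16 measures reach it. Without 2R, 11 did, and the 8 calls held (exact sign-flip permutation test, adjusted p = 0.0455), as did a missing D name, log2 clone size and the single-template share. Without any other 1 mouse the 8 calls were lost (exact sign-flip permutation test, adjusted p = 0.05 without 6NR and 0.0625 without each of the others). The differences ranged from 0.892 to 0.971 residues for length, -2.79 to -2.39 for segment-encoded bases, 1.61 to 2.01 for V deletions and 0.594 to 0.772 for J deletions. For a missing D name they ranged from 3.34 to 5.29 and for single templates from 1.41 to 3.72. They ranged from 4.96 to 5.74 for G and C, 2.00 to 2.27 for arginine, 1.54 to 2.07 for proline and 0.325 to 0.683 for glycine. For shared CDR3s the range was -9.55 to -6.22, for identical sequences -2.76 to 0.201, for log2 clone size -0.16 to -0.11, and for in-frame minus out-of-frame -10.01 to -8.43. The R minus NR difference in the share of templates ranged from -0.388 to 1.72, and V labels called from 0 to 3.

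No source used here says that mice with the same replicate number in the titles were paired. Deviations of the 3 same-numbered pairs correlated at -0.104, -0.0287 and 0.271. Whether such mice shared more than a number was not tested. With the replicate block, R minus NR was -0.736 for the share of rearrangements (exact sign-flip permutation test, p = 0.75). It was 1.72 for the share of templates (exact sign-flip permutation test, p = 0.25). That is the smallest p that 3 pairs allow, so this test could not pass. By edgeR with the block, 0 V labels passed, with 1 at an unadjusted p under 0.05. No rearrangement differed by 1 base from one 50 times larger. At 5 times, 30 did, 1 of them a member, and no call changed. Depth limits the smallest clones: 6NR had 2332 productive templates.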
